A study of Zea mays with 8 samples.

Results

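The CYP71Z cluster of maize was described here as 3 genes out of the 44135 identifiers of an expression table, Zm00001d014121, Zm00001d014134 and Zm00001d014136. They were taken by identifier alone, as cytochrome P450 genes of the CYP71Z subfamily assigned to the kauralexin, dolabralexin and zealexin pathways, and all 3 were found. Messenger RNA was measured in the emerging, not yet fully expanded leaf 4 of maize (Zea mays) cultivar Golden Queen, a sweet corn, in plants 14 d old. The 4 libraries called SLB came from leaves given a spore suspension, and the 4 control libraries from leaves given 0.1% Tween 20, a detergent, in water, all at 24 h. SLB is the usual short form of southern leaf blight, which the fungus Cochliobolus heterostrophus causes on maize. The labels name no mutant or transgene, and do not say whether a library is 1 plant or a pool.

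Plant cytochrome P450s are haem enzymes of the endoplasmic reticulum that insert oxygen into small molecules, and in maize defence they oxidise terpene hydrocarbons into acidic or epoxidised antimicrobial compounds. Kauralexins and dolabralexins are diterpenoids that start from a copalyl diphosphate made by the enzyme An2, and zealexins are sesquiterpenoids that start from macrocarpene. Maize enzymes named CYP71Z16 and CYP71Z18 are known to act on substrates of more than one of these pathways, CYP71Z18 for instance in the oxidation of macrocarpene and both in the oxidation of dolabradiene. The table of expression values gives no gene names. The table of RefSeq genes for Zm-B73-REFERENCE-NAM-5.0 lists 2 genes with a CYP71Z name, CYP71Z16 and CYP71Z18, on the same chromosome with 1 other gene between them, but it matched 0 of the 44135 identifiers. The members are therefore given by identifier, and neither name is tied to one of them.

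Values were FPKM as the authors deposited them, a fragment count divided by transcript length and by the mapped fragments of the library. Their sum over all genes was 706734 to 755209 in SLB libraries and 1415306 to 2118483 in controls, and 13397 genes were listed at 0 in every library. The sequencing depth is unknown, and a listed 0 may be a failed estimate. Genes with 1 library at 0 and the group's other 3 at 10 FPKM or more numbered 36 among controls and 2 among SLB libraries. Leaf markers could not be looked up without gene names, so the tissue was not checked.

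Of the CYP71Z genes, 2 were abundant in the SLB leaves and at or near 0 in the controls, while Zm00001d014136 was at or near 0 in both. Zm00001d014134 was the most abundant member after SLB treatment, at 368 ± 34 FPKM (SD, n = 4), and Zm00001d014121 followed at 122 ± 13.1 FPKM (SD, n = 4). Zm00001d014136 did not exceed 0.477 FPKM in any library. Both abundant members passed the test across all genes, as did 80.6% of the 19407 genes tested, with 56.0% rising. The 2 members entered it only through their SLB libraries and could hardly have failed. Zm00001d014136 was too low to enter that test.

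Zm00001d014134 was listed at 395, 324, 357 and 394 FPKM in SLB replicates 1 to 4. In the controls it was listed at 0.402 FPKM in replicate 1 and at 0 in replicates 2, 3 and 4. Every SLB library thus lay far above every control, and the SLB libraries differed little among themselves. Over all tested genes, 53.3% had every SLB library above every control. Its mean log2(FPKM + 1) was 8.52 in SLB libraries and 0.12 in controls, a difference of 8.40 (SE 0.15, limma adjusted p = 1.23e-09, higher in 4 of 4 SLB libraries). With most controls at 0 the size of this difference depends on the pseudocount, and it is not a fold change. The gene entered the test only through its SLB libraries, so the adjusted p is no separate support.

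Zm00001d014121 was listed at 135, 121, 105 and 127 FPKM in SLB replicates 1 to 4, and at 0 in all 4 controls. The groups did not overlap, and the lowest SLB library still reached 105 FPKM. Such a separation, with SLB libraries the higher, was found in 53.3% of tested genes. Its mean log2(FPKM + 1) was 6.94 in SLB libraries, and the same value is its difference from controls (SE 0.12, limma adjusted p = 1.23e-09). No fold is given against a group listed at 0, and the adjusted p has the same limit as for Zm00001d014134. For each of these genes taken alone, the two-sided exact permutation test over the 8 libraries gave p = 0.0286, the smallest that 4 against 4 libraries allow.

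Zm00001d014136 was listed at 0.477, 0.17, 0 and 0.252 FPKM in SLB replicates 1 to 4, and at 0 in all 4 controls. The groups met at 0, so this member did not separate them, and the exact permutation test gave p = 0.143 (two-sided, n = 4 per group). Without the filter on low values its difference in log2(FPKM + 1) was 0.28 (SE 0.11), with a limma adjusted p of 0.05002, which missed the threshold of 0.05. Whether this gene was transcribed in either group cannot be read from values this low at an unknown depth.

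**Figure D1:**
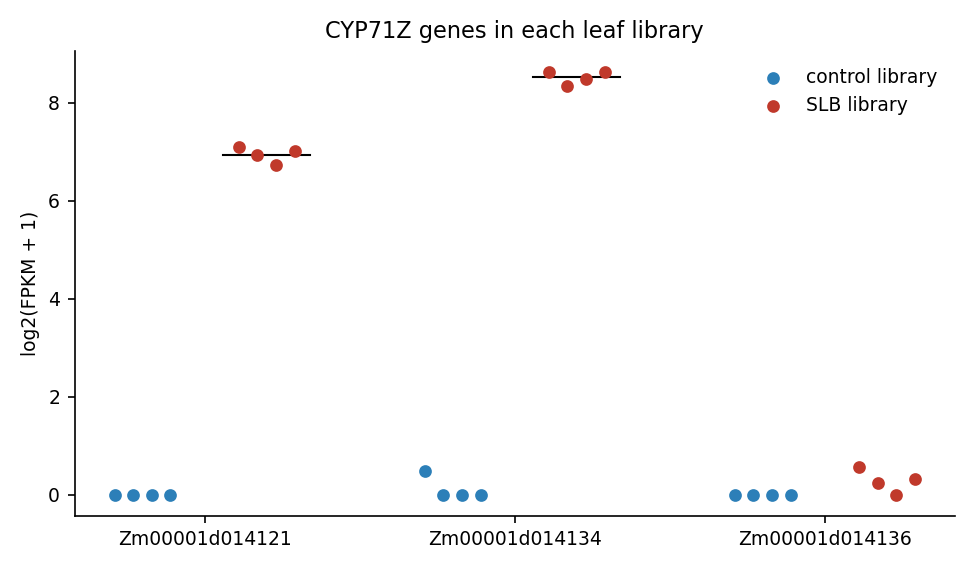
Expression of the 3 CYP71Z genes in each library as log2(FPKM + 1), controls in blue and SLB libraries in red, with a bar at the mean of a group that holds no value of 0. Zm00001d014134 and Zm00001d014121 stand at 8.52 and 6.94 on average after SLB treatment with controls at or near 0, and Zm00001d014136 stays below 1 everywhere.

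The share of members that rose has to be read against a leaf in which most tested genes differed between the groups. The test covered the 19407 genes that reached 1 FPKM in 4 or more of the 8 libraries, and 80.6% of them passed an adjusted p of 0.05, with 56.0% of tested genes rising and 24.6% falling. Zm00001d014121 and Zm00001d014134 entered the test only through their SLB libraries, so they could hardly have failed it. In 53.3% of tested genes all SLB libraries lay above all controls, so that separation by itself was common. In a bulk leaf, more cells with a transcript and more transcript per cell cannot be told apart. Nor can the treatment be told apart from any other difference in handling.

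Both abundant members ranked near the top of all tested genes by their difference. Among the 19407 tested genes, the difference of Zm00001d014134 ranked 18 from the top and that of Zm00001d014121 ranked 55, where the median gene differed by 0.69. These ranks hold for a pseudocount of 1. The genes at 100 FPKM or more in every SLB library numbered 1017. Of these, 11 were listed at 0 in every control, Zm00001d014121 among them, and 32 were below 1 FPKM in every control, which includes Zm00001d014134 too. The limits of 100 and 1 FPKM were chosen after the values were seen.

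**Figure D2:**
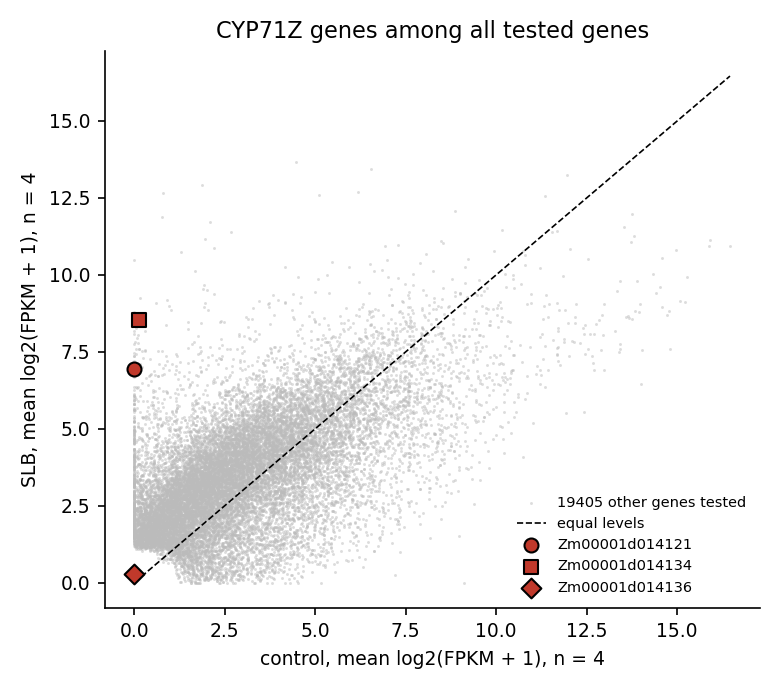
Mean log2(FPKM + 1) of every tested gene in control (horizontal axis) and SLB libraries (vertical axis), 4 libraries each, with the 3 CYP71Z genes in red and a dashed line of equal levels. Zm00001d014134 and Zm00001d014121 lie at the left edge at 8.52 and 6.94, far above the line, and Zm00001d014136, which was not tested, lies near the origin.

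Ranks within a library do not move with a common factor between libraries, and they place both members steadily in the SLB leaf. Zm00001d014134 was gene number 230, 268, 249 and 223 by FPKM in SLB replicates 1 to 4. Zm00001d014121 was number 900, 945, 1170 and 928. The order of the 2 was thus the same in each SLB library, and Zm00001d014136 came at number 21178 or further down where it was above 0. In control replicate 1, the value of 0.402 FPKM put Zm00001d014134 at number 18821.

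The ratio of the 2 abundant members was 2.69 to 3.41 in SLB libraries, and no other pair of genes was compared with it. FPKM are per length of transcript, so the levels can be set beside each other. Zm00001d014134 stood at 2.92, 2.69, 3.41 and 3.09 times the level of Zm00001d014121 in SLB replicates 1 to 4, a mean ratio of 3.03 ± 0.304 (SD, n = 4). It was the higher in 4 of 4 libraries, and the exact sign-flip test on the log2 ratio gave p = 0.125 (two-sided), the smallest that 4 libraries allow. Zm00001d014134 held 72.9% to 77.3% of the summed FPKM of the 3 genes, Zm00001d014121 held 22.7% to 27.1%, and Zm00001d014136 held at most 0.0898%. The sum of the members was 445 to 531 FPKM, or 0.0672% ± 0.00588 (SD, n = 4) of all FPKM of an SLB library. How fragments that match more than 1 gene were assigned is not given in the sources used here, and Golden Queen reads were set against the B73 genome. The split among members of one P450 subfamily, the near-zero level of Zm00001d014136 included, is uncertain to that extent.

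Whether the members changed by different amounts could be asked only on the log2(FPKM + 1) scale, because a ratio of 2 values of 0 is undefined in controls. The gap between Zm00001d014134 and Zm00001d014121 was 1.59 in SLB libraries and 0.12 in controls (exact permutation p = 0.0286, two-sided, adjusted over 3 pairs p = 0.0286). With a pseudocount of 0.1 this difference no longer passed (adjusted p = 0.143). For Zm00001d014136 against Zm00001d014121 the gap was -6.66 in SLB libraries and 0.00 in controls, and against Zm00001d014134 it was -8.24 and -0.12 (adjusted exact permutation p = 0.0286 for both). In all 3 pairs the gap in controls is that of genes at or near 0, so the tests repeat what the SLB levels show.

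Replicate spread was ordinary for genes of this level. The SD of log2(FPKM + 1) over the 4 SLB libraries was 0.14 for Zm00001d014134 and 0.16 for Zm00001d014121. In the 1941 tested genes of the same 10% class of SLB levels the median SD was 0.18, and 34.7% and 42.3% of these genes had a smaller SD than the respective member. The members did not share one lowest library. Zm00001d014121 was lowest in SLB replicate 3 and Zm00001d014134 in SLB replicate 2, and both were highest in replicate 1. With 4 libraries in each of 2 separate groups, a correlation between members was not computed.

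The members lie close together in identifier number, and the tested genes numbered between and around them rose, fell or were not called. Identifier numbers are taken to follow gene order along the B73 RefGen_v4 assembly, which was not checked. The window ran from 20 numbers before Zm00001d014121 to 20 after Zm00001d014136 and held 44 other identifiers. Of these, 20 were listed at 0 in every library, 6 more did not pass the filter, and 18 were tested. Among the 18, 11 rose, 2 fell and 5 were not called, so 61.1% rose, against 56.0% of all tested genes. The median difference in log2(FPKM + 1) was 0.95, beside 0.69 over all tested genes. The highest difference was 4.14. The mean level of the 11 rising neighbours in SLB libraries was 2.59 to 79.1 FPKM. On this scale a difference cannot exceed the SLB level, so none of them could have reached either abundant member. Of the 11, 2 had at least 1 control listed at 0. None had all 4 controls there, and neither had Zm00001d014134, at 0.402 FPKM in control replicate 1. Zm00001d014141, a rising neighbour named after its values were seen, averaged 8.33 FPKM in SLB libraries. Its control replicates 1 to 4 were at 0, 0.047, 0.056 and 0.157 FPKM.

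Between Zm00001d014121 and Zm00001d014136 stood 10 other identifiers, of which 7 were tested. Here 4 rose, 1 fell and 2 were not called, and the highest mean level in SLB libraries was 69.3 FPKM. The 2 genes of the window that fell are named after their values were seen. Zm00001d014126, between the members, averaged 21.2 ± 5.42 FPKM over the 4 controls and 3.96 ± 1.62 FPKM over the 4 SLB libraries (SD), a difference in log2(FPKM + 1) of -2.19 (SE 0.30, limma adjusted p = 8.47e-05). Zm00001d014116, which lies before the members, averaged 744 ± 172 FPKM over the controls and 279 ± 115 FPKM over the SLB libraries (SD, 4 each), with a difference of -1.48 (SE 0.30, limma adjusted p = 0.00131). Genes with opposite changes thus stood within the same stretch of identifiers.

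**Figure D3:**
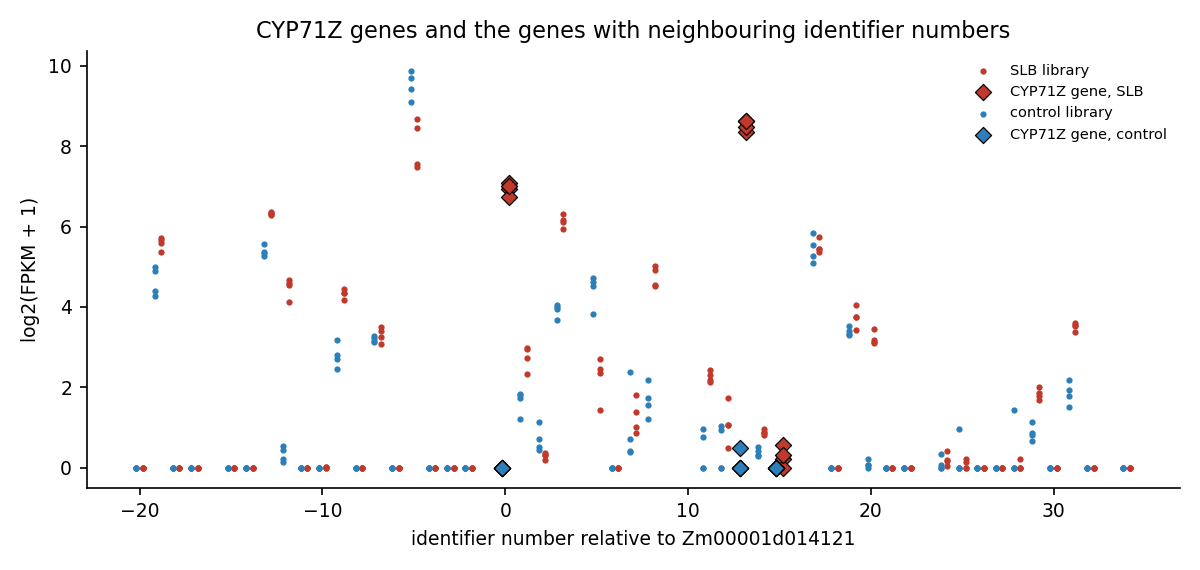
log2(FPKM + 1) in each library against identifier number counted from Zm00001d014121, controls in blue and SLB libraries in red, with CYP71Z genes as outlined diamonds. Zm00001d014121 and Zm00001d014134 are the genes with all SLB values above 6 and controls at or near 0. Of the 18 other genes tested in the window, 11 rose, 2 fell and 5 were not called.

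The genes most like the 2 abundant members in their profile over the 8 libraries were Zm00001d007363 and Zm00001d021647. Likeness was the Euclidean distance of log2(FPKM + 1), each gene centred on its own mean, from the average profile of both members. The distance was 0.303 for Zm00001d007363, 0.443 for Zm00001d021647 and 1.06 for each of the members themselves, which lie on either side of their average. Zm00001d007363 was listed at 230, 186, 172 and 179 FPKM in SLB replicates 1 to 4, at 0.147 FPKM in control replicate 1 and at 0 in the other controls. Zm00001d021647 was listed at 254, 195, 248 and 209 FPKM in SLB replicates 1 to 4, at 0.024 and 0.022 FPKM in control replicates 1 and 4 and at 0 in the other two. Both were at levels between those of the members, and they were picked for this likeness, so their profile is not tested.

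The size of the difference of both abundant members moved with the pseudocount and the scaling. Its direction could not turn, since the controls are at or near 0 and the genes entered the test through their SLB libraries. The 18 alternatives for each gene thus bear on the size at most. Filters, variance models and the block on replicate number cannot move the size, which stayed at 6.94 and 8.40. Nor can leaving out a control move it for Zm00001d014121, as all its controls are at 0. Over the 18 alternatives the limma adjusted p ran from 1.15e-10 to 3.21e-06 for Zm00001d014121 and from 3.49e-11 to 2.49e-06 for Zm00001d014134. With a pseudocount of 0.1 the difference was 10.25 for Zm00001d014121 and 11.26 for Zm00001d014134. Median-ratio scaling, which moved the median of all tested genes from 0.69 to 0.02, gave 6.51 and 7.92, and equal totals, which moved it to 1.69, gave 7.71 and 9.22. A common factor leaves a listed 0 at 0. The balance around them was less firm: 69.5% of called genes rose with FPKM as deposited, 51% under median-ratio scaling, 54.4% when quantiles were matched and 86.1% with equal totals. In the window of neighbours, median-ratio scaling gave 8 rising and 4 falling genes of the 18 tested, and equal totals gave 16 and 1. Over all 19407 tested genes, median-ratio scaling gave 7764 rising and 7456 falling, and equal totals gave 14463 and 2340.

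**Figure D4:**
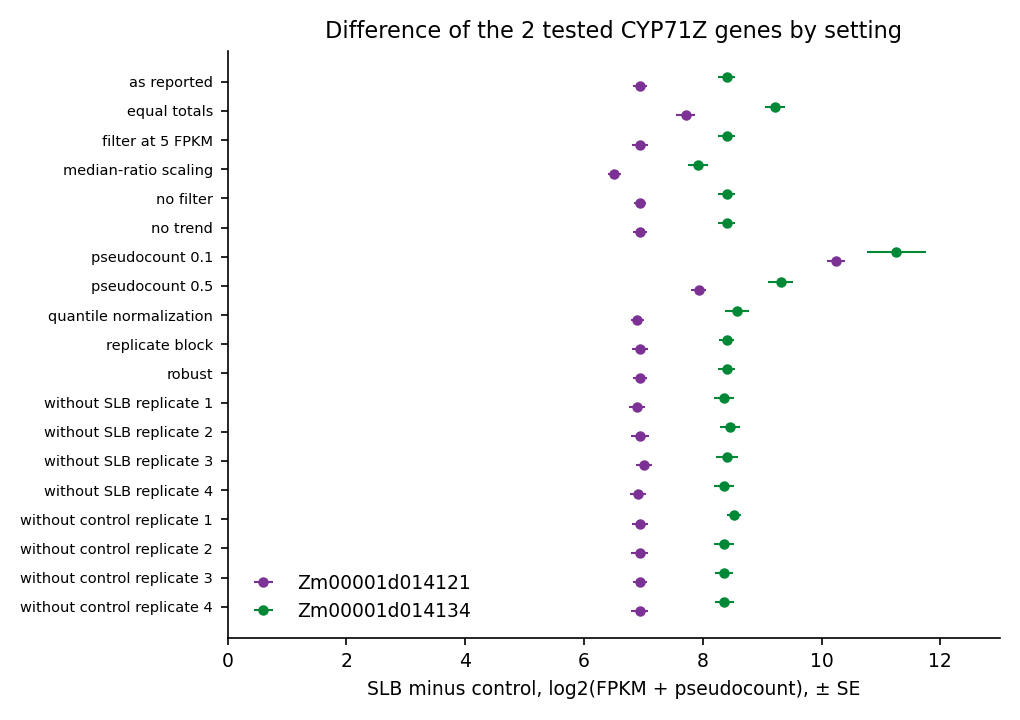
Difference between SLB and control libraries on the log2(FPKM + pseudocount) scale (horizontal axis, bars ± SE from limma) for Zm00001d014121 and Zm00001d014134 under the reported setting and 18 alternatives. All differences lie above 6, the lowest after median-ratio scaling and the highest with a pseudocount of 0.1.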

How the data were processed

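The authors deposited 1 table of FPKM values with 1 column per library, 8 in all. Unused columns of per-sample values numbered 0. Per the submitters' processing notes, Trimmomatic 0.32 trimmed the reads and the genome was B73 RefGen_v4. Libraries were stranded, per the labels' protocols. Not given in the sources used here are aligner, quantifier, annotation and any scaling of libraries to each other. Low values showed no common step: log2 ratios of values between 0.05 and 0.4 FPKM were binned by 0.02 in each of 28 library pairs, and no bin had more than 3.48% of a pair's genes. No pair of libraries shared more than 0.0366% of its values above 1 FPKM.

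Values were taken to log2(FPKM + 1) and fitted across 19407 genes with limma 3.58.1 in R 4.3.3 (group as the sole term, empirical Bayes with trend, two-sided, Benjamini-Hochberg adjustment, threshold 0.05). Exact tests used scipy 1.17.1 in Python 3.11.15. The members, window and lists were chosen with earlier results of these data known. Genes named were the members and the 2 nearest in profile, and any others are said to be chosen after their values were seen. Lists of terpenoid pathway genes and leaf markers by symbol had 0 matches and are not described. Both groups have replicates 1 to 4. The labels tie no number to a batch and do not say that plants differed between libraries, so the spread behind the p-values may be technical. Alternatives were pseudocounts, filters, scalings, variance models, a block on replicate number, and each library left out in turn.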

Additional observations from a re-analysis of the deposited data

Results flagged for a closer look

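A single CYP71Z value lay apart from its 3 fellow replicates. Zm00001d014134 was at 0.402 FPKM in control replicate 1 and listed at 0 in the other controls. Since these are equal, whatever is above 0 is bound to lie apart. It was 1 of 4 groups of values checked, and the usual chance rate of about 1 in 20 does not apply to such ties. Without that library the difference of Zm00001d014134 in log2(FPKM + 1) was 8.52, against 8.40 with it.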

How the results depend on the processing

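For Zm00001d014121 and Zm00001d014134 no alternative could have turned the direction, as their controls are at or near 0. The alternatives show the range of the size alone, 6.51 to 10.25 and 7.92 to 11.26. Only pseudocounts, scalings and left-out libraries could move it, and for Zm00001d014121 no left-out control could. Leaving out 1 library in turn gave 6.89 to 7.01 for Zm00001d014121 and 8.36 to 8.52 for Zm00001d014134. Of the counts over all genes, that of falling genes moved from 4773 to 7456 after median-ratio scaling and to 2340 with equal totals, and among the neighbours 4 and 1 fell under these settings in place of 2; both follow from shifting all genes of a library by 1 factor. The gap between Zm00001d014134 and Zm00001d014121 was 1.01 larger in SLB libraries with a pseudocount of 0.1, in place of 1.46. Without 1 library that test cannot pass, since 3 against 4 allows no p under 0.0571, and its values were 1.41 to 1.59. For Zm00001d014136 the same tests gave -6.70 to -6.64 against Zm00001d014121 and -8.24 to -8.04 against Zm00001d014134.

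After group means were removed, SLB and control libraries of equal number correlated at 0.0485, 0.0152, 0.126 and 0.112. No values for libraries of unequal number stand beside these, so they do not settle whether the numbers mark pairs. The numbers were not taken as pairs, as the labels tie none to a batch. A replicate block gave 15617 called genes, in place of 15636. It cannot change the differences of Zm00001d014121 and Zm00001d014134, 6.94 and 8.40, since each replicate number occurs once in both groups. Their limma adjusted p were 3.21e-06 and 2.49e-06 with the block, in place of 1.23e-09 for both. Depth is unknown, which limits what the values of Zm00001d014136 show.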
